A study of Mus musculus with 14 samples.

Results

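The 10 genes described here encode the core of NF-κB signalling: the IκB kinase (IKK) genes Ikbkb, Chuk and Ikbkg, the NF-κB subunit genes Nfkb1, Nfkb2, Rel, Rela and Relb, and the inhibitor genes Nfkbia and Nfkbie. They were taken by name from the 21205 genes of a table of unique molecular identifiers (UMIs), and all 10 were present and passed the filters on low counts. The cells were sorted singly as type 1 conventional dendritic cells (cDC1), the dendritic cells that take up dead-cell antigen and cross-present it to CD8+ T cells. They came from tumours of YUMM1.7, a mouse melanoma cell line, injected under the skin of the flank of female mice. The 14 samples are plates of sorted cells, with a tumour and a mouse for each plate. There were 4 genotypes by the labels. Irf1_FF (4 plates, 165 cells, 6-week-old mice) and Ikbkb_FF (1 plate, 34 cells, an 8-week-old mouse) are called controls here. Irf1_dXCR1 (5 plates, 223 cells, 6-week-old mice) and Ikbkb_dXCR1 (4 plates, 133 cells, 2 mice of 8 weeks and 2 of 6 weeks) are called Irf1-deleted and Ikbkb-deleted. The labels do not spell out the alleles or the Cre driver. The Ikbkb plates carry the experiment label M2 and the Irf1 plates M3, so experiment and the Ikbkb or Irf1 line cannot be told apart.

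In resting cells, IκB proteins hold NF-κB dimers in the cytoplasm. In the canonical pathway, a complex of the kinases IKKα (Chuk) and IKKβ (Ikbkb) with the scaffold NEMO (Ikbkg) phosphorylates IκBα (Nfkbia), which is then degraded, and dimers of p50 (from Nfkb1), RelA (Rela) and c-Rel (Rel) enter the nucleus. In the non-canonical pathway, IKKα drives the processing of p100 to p52 (both from Nfkb2), which pairs with RelB (Relb). Nfkbia, Nfkbie, Nfkb2, Rel and Relb are themselves known NF-κB target genes, and dendritic cells raise several of them when they mature and acquire the migration receptor CCR7.

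Both classes of cells that were compared are set by transcripts of other genes than the members. Cells with a Ccr7 UMI (170 of 555 cells, 30.6%) are called Ccr7 cells. Cells with a UMI of the cDC1 markers Xcr1 or Clec9a and none of Ccr7 (180 cells, 32.4%) are called cDC1-marker cells, and 205 cells had neither. Of the Ccr7 cells, 42 also had a UMI of Xcr1 or Clec9a. The labelled cell type was visible in the cDC1-marker cells, of which 92.2% had a UMI of Naaa and 86.1% of Wdfy4. Among Ccr7 cells 25.9% had a UMI of Naaa and 26.5% of Wdfy4. The cDC1 genes Irf8 and Batf3 were found in 73.5% and 43.5% of Ccr7 cells, and in 92.2% and 61.1% of cDC1-marker cells. Of markers of mature dendritic cells, Fscn1 was found in 55.3% of Ccr7 cells and 1.67% of cDC1-marker cells. Il4i1, another such marker, was found in 0.588% of Ccr7 cells and 0.0% of cDC1-marker cells. Markers of other cells were also present in both classes. Lyz2 was found in 17.1% of Ccr7 cells and 56.7% of cDC1-marker cells, and Col1a1 in 11.8% and 22.2%. The macrophage markers C1qa and Csf1r went the other way, with 9.41% and 5.88% of Ccr7 cells against 5.56% and 3.89% of cDC1-marker cells. Summed over the 11 macrophage or monocyte markers, the median plate had 839.5 counts per 1000000 UMIs (CPM) in Ccr7 cells (375 to 3131) and 1127 in cDC1-marker cells (238 to 3842), and their part in the results below was not tested. Plates held 18 to 59 cells and 2810321 to 10120557 UMIs. Ccr7 cells were shallower than cDC1-marker cells, with medians of 132930.5 and 178430 UMIs and 1388 and 2016.5 genes per cell. The levels of the targeted genes are no check of the genotypes here. Only the 5′ end of a transcript was tagged, and the labels do not spell out the alleles. How far the genes were deleted was not tested. Ikbkb stood at 291 CPM in its control plate and at 111 to 308 CPM in the Ikbkb-deleted plates, and Irf1 at 200.4 to 435 CPM in the Irf1 control plates and 98.1 to 337 CPM in the Irf1-deleted plates, so neither targeted gene separated its groups.

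The promoters of 4 members that were detected in more Ccr7 cells are shown first, since κB elements at these genes are where NF-κB is known to feed back on its own pathway. Sequences are from RefSeq on GRCm38.p6, cover 300 bases around an annotated start, and are written 5′ to 3′ on the gene's strand. Capitals mark matches to the κB decamer consensus, searched on both strands; matches can overlap each other.

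Nfkbia (chr12:55492598-55492897, minus strand): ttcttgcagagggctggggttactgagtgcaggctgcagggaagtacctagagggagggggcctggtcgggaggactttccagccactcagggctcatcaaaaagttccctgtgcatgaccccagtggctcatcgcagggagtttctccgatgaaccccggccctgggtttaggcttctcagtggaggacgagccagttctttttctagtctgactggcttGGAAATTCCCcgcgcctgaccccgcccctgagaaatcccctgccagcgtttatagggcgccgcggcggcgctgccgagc

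Nfkb2 (chr19:46304487-46304786, plus strand): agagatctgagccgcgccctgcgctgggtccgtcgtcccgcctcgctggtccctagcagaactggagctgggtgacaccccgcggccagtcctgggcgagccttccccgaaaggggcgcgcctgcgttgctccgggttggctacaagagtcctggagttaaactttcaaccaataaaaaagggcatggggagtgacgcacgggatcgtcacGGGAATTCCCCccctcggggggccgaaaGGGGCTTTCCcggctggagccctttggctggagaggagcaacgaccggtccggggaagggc

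Rel (chr11:23770920-23771219, minus strand): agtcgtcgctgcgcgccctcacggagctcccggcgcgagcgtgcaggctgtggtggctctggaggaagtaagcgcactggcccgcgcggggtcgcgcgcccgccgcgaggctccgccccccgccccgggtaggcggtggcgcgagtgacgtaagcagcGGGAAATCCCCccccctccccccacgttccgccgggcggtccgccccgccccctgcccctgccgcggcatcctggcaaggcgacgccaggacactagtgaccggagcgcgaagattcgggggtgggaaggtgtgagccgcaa

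Nfkbie (chr17:45555450-45555749, plus strand): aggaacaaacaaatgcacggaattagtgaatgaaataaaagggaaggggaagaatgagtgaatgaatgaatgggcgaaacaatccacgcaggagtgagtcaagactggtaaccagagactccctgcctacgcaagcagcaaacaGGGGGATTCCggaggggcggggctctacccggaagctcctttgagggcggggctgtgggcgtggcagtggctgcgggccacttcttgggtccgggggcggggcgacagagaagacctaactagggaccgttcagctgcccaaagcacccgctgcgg

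Each of these 4 promoters holds a match, against 4.51% of all 32851 promoters in the table, that is 5.14% of its 27025 genes. The matches of Nfkb2 and Rel include runs that read as the decamer on both strands. The table holds 3 promoters of Nfkb2, each with a match, and the first is printed. Of the 7 members with a promoter in the table, Rela, Chuk and Ikbkg had no match in these windows. A match of letters is a description of the sequence, not a measured binding site. Ikbkb, Nfkb1 and Relb had no entry.

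Across all cells of a plate, Nfkbia was the most abundant member. Its level ranged from 622 to 1643 CPM over the 14 plates, with a median of 1106. Since the UMIs count 5′ ends, these levels carry no length term. The kinase gene Ikbkb followed with a median of 284 CPM (range 96.8 to 388), then Nfkbie with 204 (115 to 387). Rel, Nfkb2, Nfkb1 and Relb had medians of 178, 148, 143 and 101 CPM. Rela, Chuk and Ikbkg were lowest, with medians of 62.9, 45.8 and 45.7 CPM, and Chuk was at 0.209 CPM in 1 plate. Nfkbia stood above the range of every other member, while the ranges of all other neighbours in this order overlapped.

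Between both classes of the same plates, 3 of the 10 members were called higher in Ccr7 cells and none lower (edgeR quasi-likelihood test with plate as a block, Benjamini-Hochberg adjusted p under 0.05 over 5289 genes, 13 plates with at least 5 cells of each class). They were Nfkbia, the gene of IκBα, Nfkb2, the gene of p100 and p52, and Rel, the gene of c-Rel. Of all genes tested, 2.95% were called higher and 1.36% lower, and the median log2 fold change over all of them was -0.53, against 1.498 for the members. These counts are descriptions of a chosen list and not a test of it. Nfkb2 and Rel lost the call with no filter on low counts (edgeR adjusted p = 0.0955 and 0.100) and with at least 10 cells of a class (0.0673 and 0.0557), and Nfkb2 also with classes set by 10 UMIs (0.0776). In the cells with at least 50000 UMIs, thinned to that number (135 Ccr7 and 163 cDC1-marker cells), a like fit also called Ikbkb, Relb and Nfkbie (edgeR adjusted p = 0.00502, 0.0123 and 0.0231). That thinned fit called 234 of 4450 genes higher and 134 lower. DESeq2 on the unthinned sums called 443 genes higher and 1019 lower, and 6 members higher and 1 lower.

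**Figure D1:**
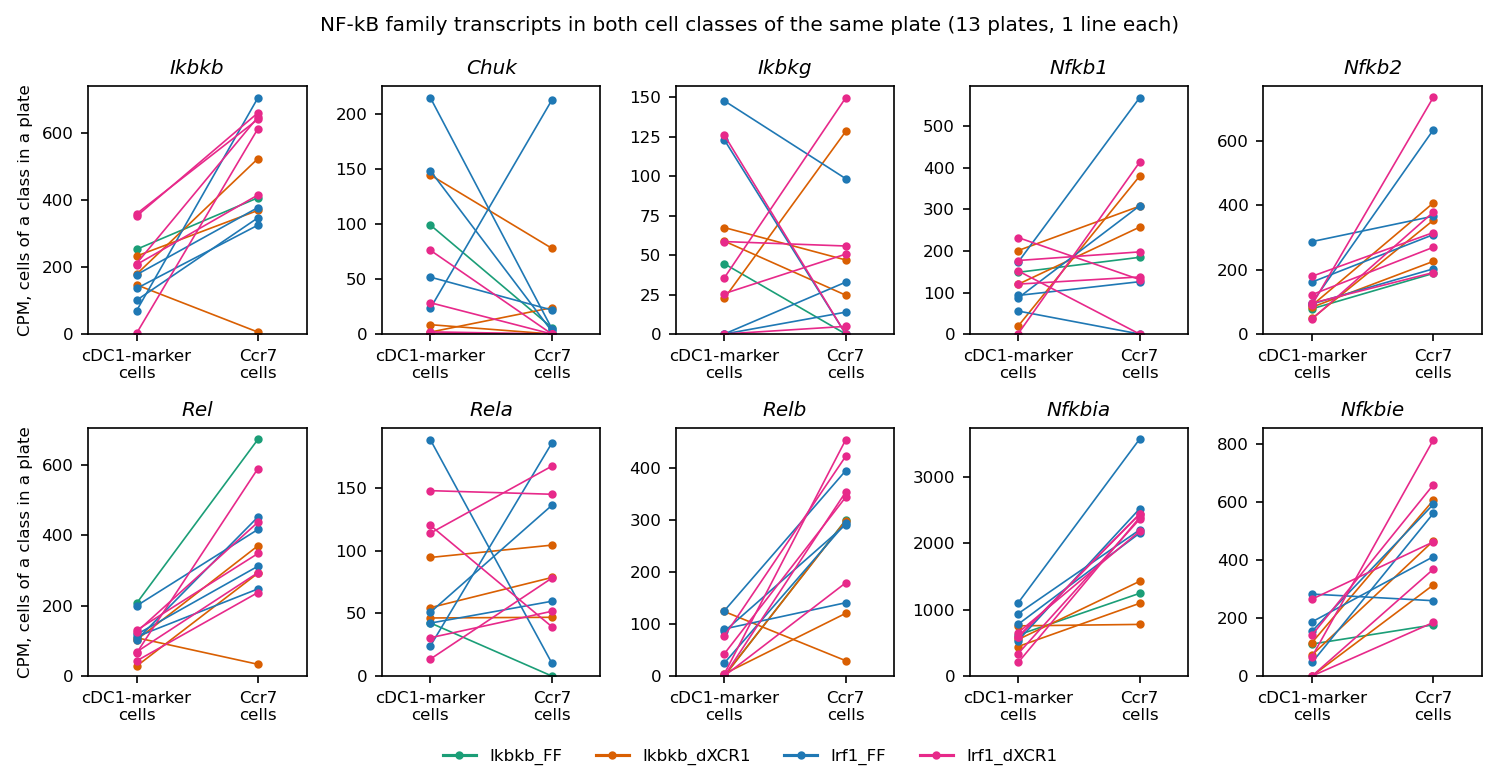
Levels of the 10 transcripts in counts per 1000000 UMIs (vertical axes, each from 0) in cDC1-marker cells and in Ccr7 cells of the same plate; each line is 1 of 13 plates, coloured by genotype. Nfkbia and Nfkb2 rise along all 13 lines and Rel along 12, while the lines of Ikbkg and Rela cross.

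Of the kinase genes, Ikbkb (IKKβ; chromosome 8, 22659212 to 22706589, build GRCm38) was higher in Ccr7 cells in 12 of 13 plates. Its lowest, median and highest levels were 5.70, 415 and 704 CPM in Ccr7 cells and 1.97, 178 and 358 CPM in cDC1-marker cells. The ranges overlapped, and the exception was Ikbkb-deleted plate 1, which has 5 Ccr7 cells. The log2 fold change was 1.32 ± 0.61 (SE; edgeR adjusted p = 0.266), which did not pass. Chuk (IKKα; chromosome 19, 44073335 to 44107480) went the other way in 11 of 13 plates, with levels of 0, 2.52 and 212 CPM in Ccr7 cells and 0.309, 28.4 and 214 CPM in cDC1-marker cells. Chuk had no UMI in the Ccr7 cells of 6 plates, and its difference did not pass (edgeR adjusted p = 0.194). Ikbkg (NEMO; chromosome X, 74393290 to 74453854) averaged 46.6 ± 50.1 CPM in Ccr7 cells and 54.6 ± 50.0 CPM in cDC1-marker cells (SD, n = 13; edgeR adjusted p = 0.947).

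Of the subunit genes, Nfkb2 (chromosome 19, 46304320 to 46312385) was higher in Ccr7 cells in 13 of 13 plates. Its lowest, median and highest levels were 189, 316 and 737 CPM in Ccr7 cells and 46.3, 93.6 and 287 CPM in cDC1-marker cells. The ranges overlapped only through Irf1 control plate 3, whose cDC1-marker cells gave the highest value of that class. The log2 fold change was 1.67 ± 0.37 (SE; edgeR adjusted p = 0.0129). Rel (chromosome 11, 23736847 to 23770970) was higher in 12 of 13 plates, with 33.3, 348 and 672 CPM in Ccr7 cells and 28.0, 109 and 206 CPM in cDC1-marker cells. Apart from Ikbkb-deleted plate 1, every Ccr7 value of Rel lay above the highest cDC1-marker value. The log2 fold change of Rel was 1.75 ± 0.42 (edgeR adjusted p = 0.0196).

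Relb (chromosome 7, 19606217 to 19629438), the partner of p52, had the largest ratio of class means among the members, 6.27-fold, yet missed the threshold (edgeR adjusted p = 0.0931). It stood at 279 ± 127 CPM in Ccr7 cells and 44.5 ± 49.4 CPM in cDC1-marker cells (SD, n = 13), was higher in 12 of 13 plates, and had no UMI in the cDC1-marker cells of 4 plates. Nfkb1 (chromosome 3, 135584655 to 135691547), the gene of p105 and p50, had 232 ± 164 CPM in Ccr7 cells and 122 ± 69.2 CPM in cDC1-marker cells (edgeR adjusted p = 0.831). Rela (chromosome 19, 5637483 to 5648130), the gene of RelA (p65), had 85.0 ± 59.1 and 74.7 ± 53.7 CPM (edgeR adjusted p = 0.967). With standard errors of 1.03 and 0.93 on the log2 scale, a change of Nfkb1 or Rela of the size seen for Nfkb2 is not excluded by these fits.

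Of the inhibitor genes, Nfkbia (chromosome 12, 55489410 to 55492647) was higher in Ccr7 cells in 13 of 13 plates, with lowest, median and highest levels of 779, 2204 and 3574 CPM against 204, 593 and 1104 CPM in cDC1-marker cells. The Ccr7 values within the cDC1-marker range were those of Ikbkb-deleted plate 1 and of Ikbkb-deleted plate 3, the latter at 1096 CPM. The log2 fold change was 1.73 ± 0.22 (SE; edgeR adjusted p = 1.44e-04), the smallest adjusted p among the members. Nfkbie (chromosome 17, 45555703 to 45563169), the gene of IκBε, was higher in 12 of 13 plates, with 176, 462 and 813 CPM in Ccr7 cells and 0, 110.0 and 282 CPM in cDC1-marker cells. It had no UMI in the cDC1-marker cells of 3 plates and did not pass (edgeR adjusted p = 0.0909).

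The share of cells with a UMI was compared separately, at 1 depth: cells with at least 50000 UMIs were thinned to that number, and shallower cells, 35 of 170 Ccr7 cells and 17 of 180 cDC1-marker cells, were left out. By this measure 6 of the 10 members were detected in more Ccr7 cells than cDC1-marker cells and none in fewer (exact two-sided sign-flip permutation test over 11 plates, adjusted over 5289 genes). Of all genes, 4.76% were called higher and 19.1% lower. The 6 were Nfkbia, Nfkb2, Rel, Relb, Nfkbie and Ikbkb, of which Nfkb2, Rel and Nfkbie each lost the call without some single plates. Relb had the largest difference: it was found in 49.4 ± 14.3% of Ccr7 cells and 12.8 ± 10.9% of cDC1-marker cells, higher in 11 of 11 plates (exact permutation test, adjusted p = 0.0143, the smallest the 11 plates gave). Ikbkb was found in 65.0 ± 13.8% of Ccr7 cells and 38.2 ± 14.8% of cDC1-marker cells (11 of 11 plates; exact permutation test, adjusted p = 0.0143). Nfkbia was found in 89.8 ± 10.5% of Ccr7 cells and 60.01 ± 13.8% of cDC1-marker cells (11 of 11 plates, exact permutation test, adjusted p = 0.0143).

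Nfkbie was found in 50.5 ± 18.1% of Ccr7 cells and 23.3 ± 16.2% of cDC1-marker cells, higher in 9 of 11 plates (exact permutation test, adjusted p = 0.0321). Rel was found in 57.7 ± 19.6% of Ccr7 cells and 32.2 ± 10.5% of cDC1-marker cells, and Nfkb2 in 49.1 ± 13.9% of Ccr7 cells and 31.2 ± 11.8% of cDC1-marker cells, each higher in 10 of 11 plates (exact permutation test, adjusted p = 0.0414 for both). Chuk was found in 6.43 ± 8.55% of Ccr7 cells and 13.2 ± 8.54% of cDC1-marker cells, lower in 8 plates and higher in 1, which did not pass (exact permutation test, adjusted p = 0.0685). Nfkb1, Rela and Ikbkg were not called either way, with adjusted p of 0.407, 0.87 and 0.297 in the same exact permutation test. Without thinning, 57.1% of all Ccr7 cells and 40.6% of all cDC1-marker cells had an Ikbkb UMI, and 42.9% and 9.44% a Relb UMI.

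**Figure D2:**
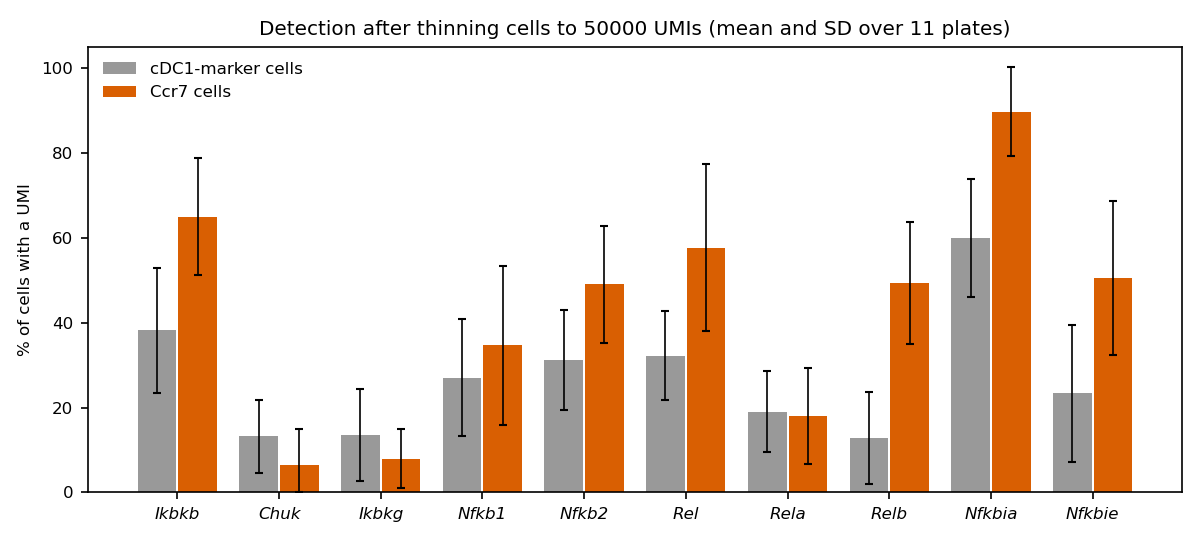
Percent of cells with a UMI of each member (vertical axis) after thinning to 50000 UMIs per cell, in cDC1-marker cells (grey) and Ccr7 cells (orange); bars are means over 11 plates and error bars the SD, cut at 0. Relb shows the widest gap, 49.4% against 12.8%, while the bars of Rela are within their error bars of each other.

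The number of UMIs in the cells that had one did not follow the share of cells for every member. Among cells with a UMI of Nfkbia, the median was 340.0 UMIs in Ccr7 cells and 186 in cDC1-marker cells, while for Nfkb2 it was 79.0 and 70. For Relb the order was the other way, with 54.0 UMIs in 73 Ccr7 cells and 85.0 in 17 cDC1-marker cells. These medians are from unthinned counts, and Ccr7 cells were shallower. The part of depth in them was not tested. At equal depth a Ccr7 cell held UMIs of 4.19 ± 0.673 members (mean and SD of 12 plate means), against 2.64 ± 0.55 in a cDC1-marker cell (13 plates). Among the thinned cells, the 39 Ccr7 cells that also had Xcr1 or Clec9a held 3.85 members on average and the 96 others 4.39. Without thinning, Relb was found in 26.2% of all 42 such cells and 48.4% of the 128 others, and Nfkb2 in 57.1% and 41.4%. These cell shares are descriptions with no test.

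Correlations were taken over the 27 sums of a class in a plate, with both classes together. The members called by detection differ between the classes, so r among them contains that class difference. It is not separate support for a link between these genes. Pearson's r of log2(CPM + 1) was 0.74 between Nfkbia and Relb, 0.72 between Nfkbia and Rel, 0.69 between Nfkbia and Nfkb2, 0.67 between Nfkbia and Nfkbie and 0.61 between Nfkbia and Ikbkb. Other pairs of these members ranged from 0.16 between Ikbkb and Nfkb2 to 0.64 between Nfkb2 and Relb. It was 0.023 between Nfkbia and Rela and -0.078 between Nfkbia and Nfkb1. Among 4580 genes with a UMI in at least 10% of cells, those most like Nfkbia were Bcl2a1b (0.90), Cd200 (0.88) and Ccl22 (0.86). Those most like Nfkb2 were Ccl5 (0.86), Fabp5 (0.82) and Ccr7 (0.81), of which Ccr7 itself defines the classes. Those most like Rel were Cd83 (0.79), Flrt3 (0.75) and AA467197 (0.74), those most like Relb Irf1 (0.78), X4930523C07Rik (0.78) and Swap70 (0.77), and those most like Nfkbie Map2k1 (0.89), Plgrkt (0.87) and Mthfd2 (0.86). Ikbkb was closest to Rbm7 (0.90), Wdr33 (0.86) and Alkbh6 (0.81), and Chuk to Fuca1 (0.70), Gins2 (0.65) and Rab19 (0.65). For Nfkb1 they were Phf11d (0.79), Yif1a (0.76) and Tm2d3 (0.75), for Rela Tmed4 (0.76), Mcrip1 (0.76) and Preb (0.75) and for Ikbkg Olfm1 (0.82), Hsd17b4 (0.73) and Pbrm1 (0.72). The points share plates and differ in depth, and no p is given.

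Other genes of the pathway were described by lists in the same fit. Of 30 listed target genes of NF-κB, 25 passed the filter on low counts. Of these 25, 12 were called higher in Ccr7 cells and none lower, beside 2.95% and 1.36% of all genes tested. Their median log2 fold change was 2.87, beside -0.53 over all genes tested. A gene near 0 in cDC1-marker cells, such as Il12b, could pass the filter through its Ccr7 sums. The counts and medians of this and the next lists describe chosen lists and are no test of them. Il12b, a subunit gene of the T cell-polarising cytokine IL-12, averaged 1507 ± 1167 CPM in Ccr7 cells and 4.39 ± 13.9 CPM in cDC1-marker cells (SD, n = 13; edgeR adjusted p = 5.79e-07). The chemokine gene Ccl22 averaged 1890.0 ± 1093 CPM in Ccr7 cells and 8.88 ± 19.3 CPM in cDC1-marker cells (edgeR adjusted p = 9.98e-07), and the chemokine gene Ccl5 1396 ± 898 CPM in Ccr7 cells and 11.7 ± 25.7 CPM in cDC1-marker cells (edgeR adjusted p = 9.98e-07). Cd83, a surface molecule of activated dendritic cells, averaged 2956 ± 751 CPM in Ccr7 cells and 1246 ± 329.9 CPM in cDC1-marker cells (edgeR adjusted p = 2.87e-06). Each of these 4 was higher in 13 of 13 plates, and Il12b, Ccl22 and Cd83 are also in the list of mature dendritic cell markers. By detection, 12 target genes were called higher and 1, Sod2, lower, beside 4.76% and 19.1% of all genes tested. Cd83 was not called by detection (exact permutation test, adjusted p = 0.0685). Ccl22 was also among the genes closest to Nfkbia and Ccl5 among those closest to Nfkb2, in correlations that contain the same class difference.

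In this fit 2.95% of all genes tested were called higher. Of 11 feedback inhibitors, 7 passed the filter, and Traf1 and Tnip3 were called higher. Traf1, an adaptor of TNF receptors, averaged 1139 ± 349 CPM in Ccr7 cells and 251 ± 94.8 CPM in cDC1-marker cells (13 of 13 plates, edgeR adjusted p = 1.48e-05). Tnip3, a partner of the deubiquitinase A20, averaged 441 ± 227 CPM in Ccr7 cells and 7.24 ± 12.3 CPM in cDC1-marker cells (13 of 13 plates, edgeR adjusted p = 2.14e-04). Of 5 other IκB proteins, 3 passed the filter and 1, Nfkbib (IκBβ), was called higher. Nfkbib averaged 806 ± 308 CPM in Ccr7 cells and 199.9 ± 85.9 CPM in cDC1-marker cells (13 of 13 plates, edgeR adjusted p = 0.0282), and the nuclear IκB gene Nfkbid 76.0 ± 75.4 CPM in Ccr7 cells and 37.1 ± 37.5 CPM in cDC1-marker cells (8 of 13 plates, edgeR adjusted p = 0.798). With Nfkbib, all 3 classical IκB genes (Nfkbia, Nfkbib and Nfkbie) were detected in more Ccr7 cells by the thinned measure, where Nfkbib had an adjusted p of 0.0143 (exact permutation test).

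Of 16 receptors that signal to NF-κB, 6 passed the filter, with a fold change above 0 for 3 and below 0 for 3. Cd40 and Tnfrsf4 were called higher and none lower, while by detection the same 2 were called higher and Tlr3 and Tlr11 lower. Of all genes tested, 2.95% were called higher and 1.36% lower by edgeR. By detection these shares were 4.76% and 19.1%. Cd40, which relays T cell help to dendritic cells through both NF-κB pathways, averaged 1085 ± 446 CPM in Ccr7 cells and 147 ± 111 CPM in cDC1-marker cells (13 of 13 plates, edgeR adjusted p = 0.00115). Tnfrsf4 (OX40) averaged 776 ± 307 CPM in Ccr7 cells and 27.6 ± 61.4 CPM in cDC1-marker cells (12 of 13 plates, edgeR adjusted p = 0.00101). Of 30 upstream kinases and adaptors, 20 passed the filter and 1, Tank, was called higher. That 1 call does not set the list apart from all genes tested, of which 2.95% were called higher. Tank, an adaptor of the IKK-related kinases, averaged 495 ± 200.3 CPM in Ccr7 cells and 35.4 ± 40.8 CPM in cDC1-marker cells (13 of 13 plates, edgeR adjusted p = 0.0239), and the kinase gene Map3k8 275 ± 187 CPM in Ccr7 cells and 127 ± 73.2 CPM in cDC1-marker cells (9 of 13 plates, edgeR adjusted p = 0.538). By detection, 4 genes of this list were called higher, among them Map3k14, the gene of the NF-κB-inducing kinase NIK that starts the non-canonical pathway, and 1, Myd88, lower.

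**Figure D3:**
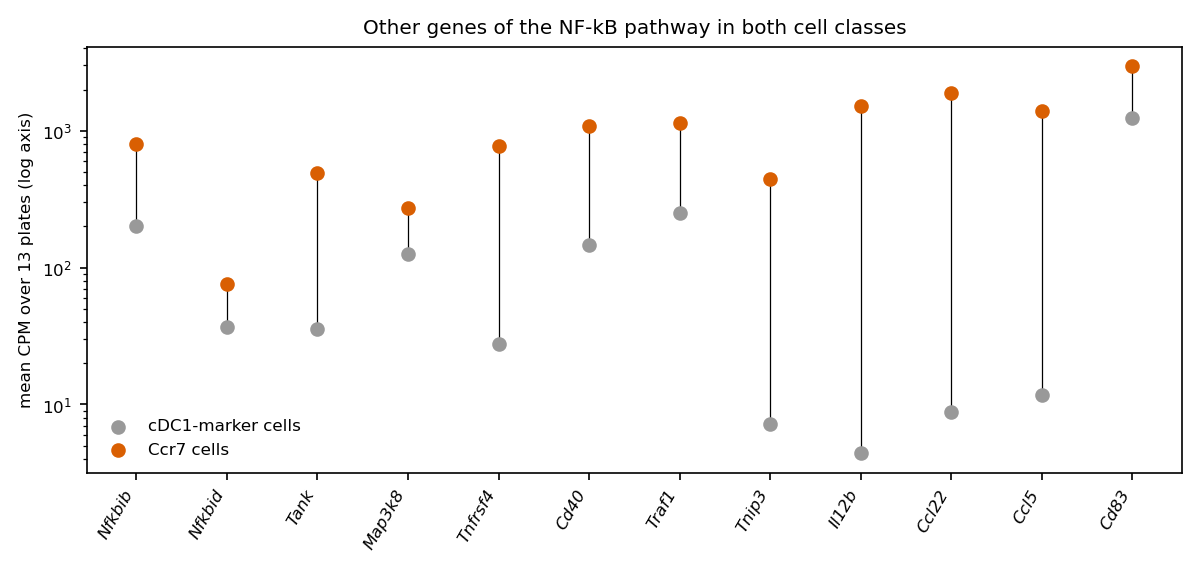
Mean level over 13 plates in counts per 1000000 UMIs (vertical log axis) of the other pathway genes named here, in cDC1-marker cells (grey) and Ccr7 cells (orange). All 12 means lie higher in Ccr7 cells, for example 2956 against 1246 for Cd83 and 1507 against 4.39 for Il12b; Nfkbid and Map3k8 did not pass the test.

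Between Irf1-deleted and Irf1 control plates, over all cells, none of the 10 members was called, nor any of 16203 genes (0.0%; edgeR adjusted p). At an unadjusted p under 0.05 there were 1272 genes and no member, and DESeq2 called 100 genes and no member. Ikbkb averaged 217 ± 89.8 CPM in control plates (SD, n = 4) and 332 ± 61.6 CPM in Irf1-deleted plates (n = 5). The control plates stood at 96.8, 311, 246 and 215 CPM and the deleted plates at 388, 296, 366, 240.4 and 366 CPM. Both groups overlapped, and the log2 fold change was 0.61 ± 0.36 (SE; edgeR adjusted p = 0.581). Nfkbia had 1064, 1413, 1392 and 1643 CPM in the control plates and 1334, 672, 1187, 1149 and 1205 CPM in the deleted plates. The deleted plates were lower on average, with overlap (log2 fold change -0.31 ± 0.19, SE; edgeR adjusted p = 0.595).

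Chuk stood at 75.4, 87.5, 92.2 and 35.6 CPM in the Irf1 control plates and at 45.3, 46.3, 0.209, 12.5 and 5.89 CPM in the Irf1-deleted plates. Only the lowest control plate lay within the deleted range (edgeR adjusted p = 0.718). Mean levels in control and deleted plates were 37.7 and 44.1 CPM for Ikbkg, 144 and 133 CPM for Nfkb1, 181 and 170.4 CPM for Nfkb2 and 157 and 160.2 CPM for Rel. They were 63.4 and 65.7 CPM for Rela, 120.4 and 107 CPM for Relb and 214 and 236 CPM for Nfkbie, and the plates of both groups overlapped for each of these 7 (edgeR adjusted p = 1). By detection at 50000 UMIs no gene of 16203 was called (0.0%). With 4 against 5 plates the exact permutation test cannot give a p below 0.00794 before adjustment over all these genes. Unadjusted, Chuk had the smallest p of the members, with 6.74 ± 3.01% of cells in deleted and 13.7 ± 5.10% in control plates (exact permutation test, two-sided p = 0.0476).

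**Figure D4:**
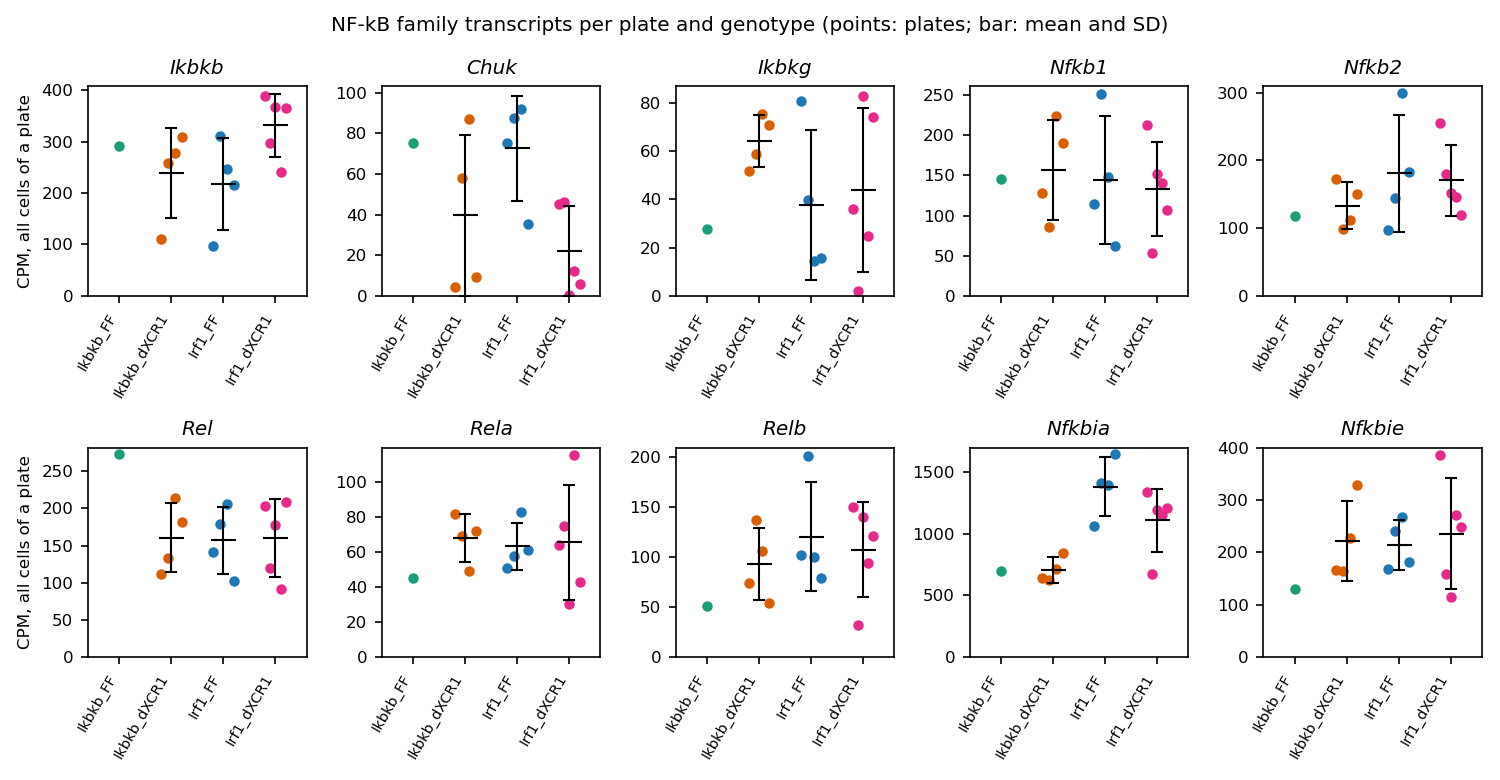
Level of each member over all cells of a plate in counts per 1000000 UMIs (vertical axes, each from 0) by genotype; points are plates and bars the mean and SD of groups with several plates, cut at 0. Points of the groups overlap for most members; the Nfkbia points of both Ikbkb groups, at 622 to 846, lie below all 4 Irf1_FF points.

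Between the Ikbkb-deleted plates and their single control plate no member and no gene of 16203 was called (0.0%; edgeR, with the spread of all groups assumed for the 1 control plate). At an unadjusted p under 0.05 there were 707 genes and no member, and DESeq2 called 1180 genes and no member. Against all 5 control plates together, again no member and no gene of 11219 was called (0.0%; edgeR), although 997 genes had an unadjusted p under 0.05, Nfkbia among them, and DESeq2 called 465 genes including Nfkbia. Ikbkb itself differed by a log2 fold change of -0.28 ± 0.58 from its own control plate (edgeR adjusted p = 1) and 0.004 ± 0.33 from the 5 control plates (edgeR adjusted p = 1). Both comparisons share the Ikbkb-deleted plates and the Ikbkb control plate. A sum over a plate does not tell fewer cells with a transcript from fewer transcripts per cell, and Ccr7 cells made up 15.4 to 43.1% of the cells of Ikbkb-deleted plates, 23.5% of the Ikbkb control plate and 14.0 to 41.9% of the Irf1 control plates.

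Nfkbia was the only member with an unadjusted p under 0.05 against all 5 control plates. It stood at 638, 622, 716 and 846 CPM in the 4 Ikbkb-deleted plates, 695 CPM in the Ikbkb control plate and 1064, 1413, 1392 and 1643 CPM in the Irf1 control plates. Of the Ikbkb-deleted plates, the first 2 came from 8-week-old mice, as did the Ikbkb control plate, and the other 2 from 6-week-old mice. The Ikbkb control plate lay among the Ikbkb-deleted plates and below every Irf1 control plate. Against all 5 control plates the log2 fold change of Nfkbia was -0.84 ± 0.23 (SE; edgeR unadjusted p = 0.00232, adjusted p = 0.477; DESeq2 adjusted p = 0.00513), beside a median of -0.18 over all genes. Alone, the Ikbkb control plate gave 0.023 ± 0.31 (edgeR adjusted p = 1). The 5 plates of experiment M2 ranged from 622 to 846 CPM and the 9 plates of M3 from 672 to 1643 CPM, so a difference between experiments and one between genotypes cannot be told apart.

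**Figure D5:**
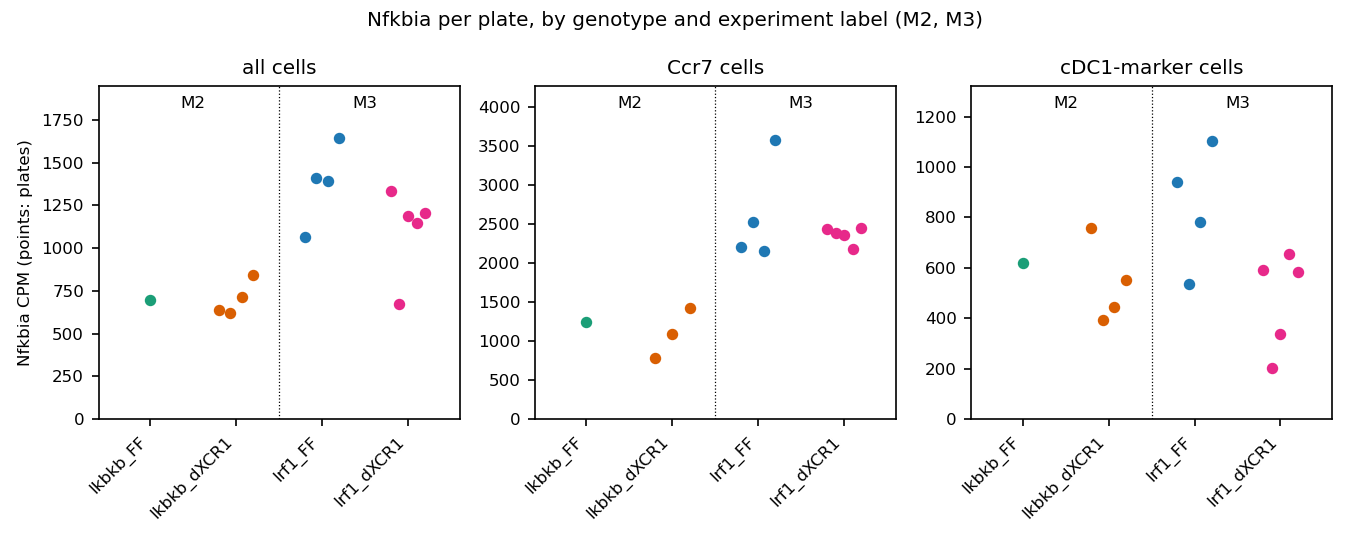
Level of Nfkbia in counts per 1000000 UMIs (vertical axes, each from 0) over all cells, Ccr7 cells and cDC1-marker cells; points are plates by genotype, and the dotted line divides the experiment labels M2 and M3. In Ccr7 cells the M2 plates, 779 to 1428, lie below all M3 plates, 2155 to 3574. In cDC1-marker cells the M2 and M3 plates overlap.

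The same order was seen inside the Ccr7 cells. Nfkbia stood at 779, 1096 and 1428 CPM in the Ccr7 cells of 3 Ikbkb-deleted plates, 1247 CPM in those of the Ikbkb control plate and 2204, 2523, 2155 and 3574 CPM in those of the Irf1 control plates. The Irf1-deleted plates had 2438, 2392, 2364, 2184 and 2445 CPM, within the range of their controls. All Ikbkb plates were below all Irf1 plates. Against all control plates the log2 fold change in Ikbkb-deleted plates was -1.06 ± 0.28 (SE; edgeR adjusted p = 0.604; DESeq2 adjusted p = 0.00128). No member and no gene of 7893 was called in that comparison by edgeR (0.0%; 602 genes and 1 member at an unadjusted p under 0.05, 289 genes and 1 member by DESeq2), and the experiment label again cannot be told apart from the genotype. In cDC1-marker cells the Ikbkb plates were not all below the Irf1 plates, which had 204 to 1104 CPM of Nfkbia. The Ikbkb-deleted plates had 757, 394, 445 and 551 CPM there and the Ikbkb control plate 619 CPM. There edgeR called no member and no gene of 8219 (0.0%; 409 genes and no member at an unadjusted p under 0.05, 111 genes and no member by DESeq2).

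Between Irf1-deleted and Irf1 control plates, no member and no gene was called within Ccr7 cells (0 of 11783, 0.0%; 1409 genes and 1 member at an unadjusted p under 0.05) or within cDC1-marker cells (0 of 12557, 0.0%; 1225 genes and 1 member), by edgeR. DESeq2 called 125 genes in the former, Chuk among them, and 166 genes and no member in the latter. Chuk had no UMI in any of the 67 Ccr7 cells of the 5 Irf1-deleted plates (exact binomial 95% upper limit of the share 5.36%). It was found in 6 of 49 Ccr7 cells of the Irf1 control plates (12.2%, exact binomial 95% interval 4.63 to 24.8%), at 2.52, 212, 4.95 and 21.8 CPM. These limits overlap; they cover counting error in pooled cells only, and the plate is the replicate. Control plate 2 gave 431 of those 467 UMIs, from 2 cells, and the difference did not pass (edgeR adjusted p = 0.386; DESeq2 adjusted p = 0.00405). In cDC1-marker cells, Nfkbia was the member with the unadjusted p under 0.05: it had 942, 535, 781 and 1104 CPM in control and 593, 204, 338, 653 and 583 CPM in deleted plates, which overlapped (log2 fold change -0.81 ± 0.35; edgeR adjusted p = 0.428).

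Whether the difference between cDC1-marker and Ccr7 cells itself varied with the genotype was tested as an interaction. No member and no gene of 5289 was called for Irf1-deleted against Irf1 control plates (0.0%; edgeR), or for Ikbkb-deleted against all control plates (0.0%; edgeR). At an unadjusted p under 0.05 there were 86 and 115 genes and no member, and DESeq2 called 113 and 296 genes and no member. The interaction of Nfkbia was 0.78 ± 0.41 on the log2 scale in the former and -0.62 ± 0.45 in the latter (SE; edgeR adjusted p = 1 for both). Its standard errors, the smallest among the members, leave room for a moderate difference, and for Relb they were 2.76 and 3.93.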

How the data were processed

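The authors deposited UMI counts of 21205 genes in 555 single cells, tagged at the transcript's 5′ end, per the labels' protocols. The submitters' processing notes name bcl2fastq, STAR 2.5.3a, HTSeq 0.9.1 and GRCm38. A deposited cell annotation gives each cell's plate, genotype and age, and mitochondrial and spike-in UMIs as a fraction. A UMI of 5 bases limits a count to 1024 per gene and cell. No cell was removed from the sums over UMIs; results at 50000 UMIs leave out shallower cells (35 Ccr7, 17 cDC1-marker and 50 other cells). Cells were sorted singly and doublets were not searched for; 94 well barcodes recur across plates with 0 identical cells.

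The plate, 1 tumour of 1 mouse, was the replicate, so p-values of genotype comparisons rest on the spread between plates. In the paired class comparisons they rest on how the class difference varies between plates. Counts were summed per plate, or per plate and class (at least 5 cells), filtered by filterByExpr, scaled by TMM and tested with edgeR 4.0.16 (two-sided) in R 4.3.3. Genotype fits used all plates, which share one estimate of the spread. Ccr7, Xcr1 and Clec9a were not tested where they define classes. CPM follow TMM scaling. The standard error is the log2 fold change over the root of the F statistic. Where plates had 0 UMIs, fitted folds depend on the prior count. They are given only within medians over lists and, for Ikbkg, Nfkb1 and Rela, where their sign changed between settings. Both classes come from the same tumour, so plate was a paired block. Alternatives were DESeq2 1.42.0, limma-trend (limma 3.58.1), other filters, factors, classes and depths, and each plate left out. All 10 members, up to 4 called genes of each pathway list (or its 2 most abundant), and the 3 genes most correlated with each member are named; Map3k14, Myd88, Tlr3 and Tlr11 were chosen after their values were seen. The members and lists were chosen with earlier results of these data known. Tests were tried on simulated data. Promoters are from RefSeq, positions from GENCODE M21 on GRCm38.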

Additional observations from a re-analysis of the deposited data

Results flagged for a closer look

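In groups of 4 or 5 plates, 79 sets of member levels were screened for a plate whose gap to the nearest other plate exceeded Dixon's 95% limit for the range, and 6 stood out (7.59%). Chance flags about 1 in 20 groups. Over all cells, Nfkbia was 672 CPM in Irf1-deleted plate 2 and 1149 to 1334 CPM in the other 4; that plate also had the fewest genes per cell, a median of 705. In Ccr7 cells, Irf1 control plate 2 was high for Chuk, with 212 CPM against 2.52 to 21.8 CPM in the other 3, and for Ikbkb, with 704.5 CPM against 325 to 377 CPM. Ikbkb was low in the Ccr7 cells of Irf1-deleted plate 4, with 415 CPM against 612 to 659.6 CPM. In cDC1-marker cells, Rel was 199 CPM in Irf1 control plate 1 against 102 to 118 CPM, and Rela was 189 CPM in Irf1 control plate 3 against 24.1 to 51.0 CPM.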

How the results depend on the processing

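Nfkbia was called higher in Ccr7 cells as reported and under all 11 alternatives and all 13 fits without 1 plate; Nfkb2 and Rel were called in all 13 of the latter. The number of members called higher was 3. It was 6 with DESeq2, 6 with limma-trend, 6 after thinning to 50000 UMIs, 5 with Ccr7 cells lacking Xcr1 and Clec9a, and 1 with no filter on low counts. Requiring 10 cells of a class gave Nfkbia and Nfkbie, and classes by 10 UMIs gave Nfkbia, Rel and Relb. Over all genes the fit called 228 of 5289 (156 higher, 72 lower). This became 1462 with DESeq2 (443 higher, 1019 lower) and 1985 with limma-trend (313 higher, 1672 lower), of the same 5289. It was 545 of 5086 for classes by 10 UMIs (206 higher, 339 lower). With Ccr7 cells lacking Xcr1 and Clec9a it was 512 of 4729 (188 higher, 324 lower). It was 368 of 4450 after thinning (234 higher, 134 lower) and 114 of 7055 with at least 10 cells (96 higher, 18 lower). With no filter on low counts it was 201 of 18230 (151 higher, 50 lower). The number of members called lower was 1 (Chuk) with DESeq2 and with limma-trend. By detection, 3 to 5 members were called higher when 1 of the 11 plates was left out. Ikbkb, Nfkbia and Relb were called each time. The number was 3 without Ikbkb-deleted plate 3 or 4, Irf1 control plate 2 or 4, or Irf1-deleted plate 3 or 4. It was 4 without the Ikbkb control plate, Irf1 control plate 1, or Irf1-deleted plate 1 or 5, and 5 without Irf1 control plate 3. Of all 5289 genes, 905 to 1109 were called in either direction in these tests. Fewer plates also raise the smallest p the test can give. Chuk was called lower by detection at 20000 UMIs, without thinning, from 10 UMIs and without Irf1 control plate 2. With no replicate block, that is without pairing classes by plate, 3 members were called, the same 3 genes. DESeq2 called 1 member in Ikbkb-deleted against all control plates, 1 in the same comparison within Ccr7 cells, and 1 in Irf1-deleted against control plates within Ccr7 cells; the other alternatives called 0 in these. For DESeq2 the cause of the difference was not tested.

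Upper-quartile factors moved the median of all genes in Ikbkb-deleted against all control plates from -0.18 to -0.032, and Nfkbia from -0.84 to -0.69. With limma-trend, which weights cells equally, Nfkbia was -2.35 there, -1.31 in Irf1-deleted against Irf1 control plates and 3.48 in Ccr7 cells, on the scale of a mean over cells of log2(CPM + 1). Some uncalled values changed sign. For Ikbkg in Ccr7 cells the log2 fold change was -0.43 in cells with at least 500 genes, -0.21 with limma-trend, -0.47 for classes by 10 UMIs, -0.22 with no replicate block, -0.84 with Ccr7 cells lacking Xcr1 and Clec9a, and -0.17 after thinning, and -0.11 to 0.85 without 1 plate. For Nfkb1 it was -0.18 with at least 10 cells and -0.029 with Ccr7 cells lacking the markers. For Rela it was -0.042 with limma-trend, -0.18 with at least 3 cells, -0.048 for classes by 10 UMIs and -0.082 after thinning, -0.10 to 0.43 without 1 plate, and its detection difference was -3.06 to 1.45 percentage points without 1 plate. For Nfkbia against the Ikbkb control plate it was -0.015 with no filter and -0.076 to 0.079 without 1 plate. For Ikbkb in Ikbkb-deleted against all control plates it was -0.016 with DESeq2, -0.10 with limma-trend and -0.15 to 0.26 without 1 plate. The fit of Ikbkb-deleted plates without the Ikbkb control plate could not be run. A class held 5 to 22 cells in the plates compared, and Chuk, Ikbkg and Rela were found in under 20% of cells of either class; the part of depth in their missing calls was not tested.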

Other observations

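The 205 cells with a UMI of none of Ccr7, Xcr1 and Clec9a were in no comparison. They had a median of 105858 UMIs and 1275 genes, and 22.9% had a UMI of the macrophage gene C1qa and 32.7% of the collagen gene Col1a1. Shares in these cells and in the deeper cDC1-marker cells, unthinned and not tested, were 56.6% and 58.3% for Nfkbia, 8.29% and 9.44% for Relb, 15.6% and 27.2% for Nfkb2, and 16.1% and 32.8% for Rel. Among 135 Ccr7 cells thinned to 50000 UMIs, 52 held both Ikbkb and Relb: Relb was found in 59.8% of cells with Ikbkb and 20.8% of cells without, over cells of different plates and with no test. This pair was picked after the values were seen, as the widest gap among 45 pairs of members. For Ikbkb and Rel the shares were 56.3% and 50.0%, and Nfkb2 went the other way, with 43.7% of cells with Ikbkb and 58.3% of cells without.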
